A study of Mus musculus with 4 samples.

Results

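The inducible heat shock chaperones examined here were 10 genes, namely Hspa1a, Hspa1b, Hspb1, Hsph1, Dnajb1, Hspa5, Hspa8, Hsp90aa1, Hspe1 and Hspd1. They were chosen by name, and every transcript cluster that carried their gene symbol was taken. A cluster is a set of probes that the design of the array pools into a single reading for a transcribed region. The 10 genes had 15 clusters of the 33793 on the array, which carry 24515 gene symbols in all. Heat shock chaperones bind unfolded or partly folded proteins, keep them from aggregating and help them reach their native state. Heat, oxidants and other insults that unfold proteins release the transcription factor HSF1, which binds inverted repeats of the short unit GAA, called heat shock elements, in front of many of these genes. In the brain, neurons keep a large constitutive store of Hspa8 and Hsp90 proteins, whereas Hspa1a and Hspa1b are inducible by stress. The wild-type log2 signals of Hspa1a and Hspa1b, 8.04 to 8.26, still lay above the array medians of 6.03 to 6.09.

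Adult female 129SV mice gave whole-brain total RNA, which was measured on 4 Affymetrix whole-transcript arrays, 2 for wild type and 2 for Adar2-/- (Adar2 knockout). ADAR2, the product of Adarb1, deaminates adenosine to inosine in double-stranded RNA. Per the study's methods, both genotypes were sisters from crosses of Adarb1 heterozygotes and both were homozygous for Gria2 R/R, a pre-edited AMPA receptor subunit that rescues Adar2-/- mice from early death. The wild-type mice were therefore wild type at Adarb1 and not at Gria2, the knockout is constitutive, and the comparison is of adult brains that had lacked ADAR2 throughout development. The study's methods describe no stress or treatment in either group. All signals below are log2 signals as deposited, and all changes are Adar2-/- minus wild type on that scale.

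Adarb1 was checked first. Its log2 signal was 10.50 in wild-type replicate 1 and 10.45 in replicate 2, against 9.16 and 8.96 in the Adar2-/- replicates, a change of -1.415 (limma, SE 0.118, adjusted p = 0.409, unadjusted p = 2.57e-05). The array medians ran from 6.03 to 6.09 and Pearson's r between arrays, across clusters, from 0.993 to 0.995. Adarb1 stayed above these medians in Adar2-/-, so the check shows a lower Adarb1 signal and not its absence. The 4 neuronal marker genes found lay between 10.82 and 13.16, whereas Y-linked genes, absent from female mice, lay between 3.49 and 4.40. The latter range comes from 4 clusters and is only a rough guide to where an absent transcript reads. The arrays also differed in markers of other tissues and regions. The mean of 5 salivary gland genes was 7.74 in Adar2-/- replicate 1 and between 4.73 and 5.04 in the others. Of 8 clusters of pituitary hormone genes 3 were higher in Adar2-/- (Prl, Gh and Pomc, unadjusted p below 0.05), and the mean of 5 olfactory bulb genes was 6.47 in Adar2-/- replicate 2 and between 6.99 and 7.11 elsewhere. Of 6 clusters of red cell genes 1 was lower in Adar2-/- (Alas2). The part that these tissues play in the chaperone values was not tested.

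Promoter sequences from RefSeq (GRCm38.p6) were on hand for 8 of the 10 genes, each from 250 bases before to 50 bases after a transcription start. The paired genes Hspa1a and Hspa1b encode the inducible cytosolic HSP70 and lie next to each other on chromosome 17. They are shown because their array values differed, whereas the 150 bases before their starts differ at 1 position and the 250 bases at 3. The capitals mark a head-to-head pair of heat shock element units, and both sequences are on the minus strand, at chr17:34972157-34972306 for Hspa1a and chr17:34959239-34959388 for Hspa1b.
Hspa1a: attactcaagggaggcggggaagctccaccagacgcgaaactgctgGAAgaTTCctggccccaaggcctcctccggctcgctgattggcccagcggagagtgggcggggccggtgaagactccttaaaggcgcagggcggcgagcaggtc
Hspa1b: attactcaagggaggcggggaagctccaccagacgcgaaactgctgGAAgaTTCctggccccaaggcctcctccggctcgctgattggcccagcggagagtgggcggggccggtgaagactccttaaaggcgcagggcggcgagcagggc

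Short stretches of 3 other promoters show the elements found there, with Hspa5 as the chaperone of the endoplasmic reticulum (ER). Hspd1 and Hspe1 encode the HSP60 barrel and HSP10 lid of the mitochondrial chaperonin and are read in opposite directions from a shared region. In that region, at chr1:55088053-55088082 and inside the RefSeq span of Hspd1, capitals mark 4 heat shock element units in a row. Hspb1, at chr5:135887797-135887834, has a pair of units at each end. Hspa5, at chr2:34772020-34772049, has no heat shock element by these searches, and its capitals mark the CCAAT and CCACG parts of an ER stress response element. All 3 stretches are on the plus strand.
Hspe1: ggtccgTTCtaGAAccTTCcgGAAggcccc
Hspb1: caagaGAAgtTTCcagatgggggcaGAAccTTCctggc
Hspa5: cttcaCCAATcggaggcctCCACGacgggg

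The head-to-head pair GAANNTTC was found in 7 of 11 member windows, from 6 of the 8 genes (Hspa1a, Hspa1b, Hspb1, Hsph1, Hspd1 and Hspe1). Over all 32851 promoter windows of that length it was found in 7.86%. The tail-to-tail pair TTCNNGAA was found in 4 of 11 member windows (Hspd1, Hspe1 and Hsph1) and in 8.52% of all windows. A run of 3 units, GAANNTTCNNGAA or its reverse complement, was found in 4 member windows of the same 3 genes and in 0.603% of all windows. It contains both pairs, so these counts overlap, and in Hsph1 it lies after the start. The matches of Hspd1 and Hspe1 are the same site counted for both genes, and the Hspa1a and Hspa1b windows are near-identical. The ER stress response element was found in Hspa5 alone among the members and in 0.119% of all windows. All searches covered both strands. Dnajb1 had no match to any of these motifs in its window, and Hspa5 had none to the heat shock elements. A match is a string of letters in a window and was not tied to binding in these brains.

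No chaperone gene passed the test for a difference between Adar2-/- and wild-type brain. Of the 15 clusters 0 were higher and 0 were lower at an unadjusted limma p below 0.05, where 3.64% of all clusters were higher and 2.31% were lower. The balance of that background depended on the scaling. After median centring 2.37% of all clusters were higher and 3.64% were lower, and 1 of the 15 member clusters (Hspa1a) was lower. At an adjusted p below 0.05 the count was 0 of 15, and also 0% of all clusters. The lowest adjusted p among the members was 0.834. Their median change was -0.01, beside 0.005 over all clusters. In 4 of the 15 clusters the arrays of the genotypes did not overlap, 1 higher in Adar2-/- (Hspa5) and 3 lower (Hspa1a, Hspb1 and Dnajb1), where 17.7% of all clusters stood apart as higher and 16.5% as lower. An exact permutation test, two-sided, gave p = 0.333 for each of those 4 clusters, the smallest value that 2 against 2 arrays allow. In bulk RNA, fewer cells of a type and less RNA per cell cannot be told apart.

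These limits still bound the size of a change. The 95% confidence intervals reached 0.254 to 0.589 to either side of the estimate over the 15 clusters. For the 10 clusters that lie on the strand of their own gene, no interval went below -0.499 or above 0.736.

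**Figure D1:**
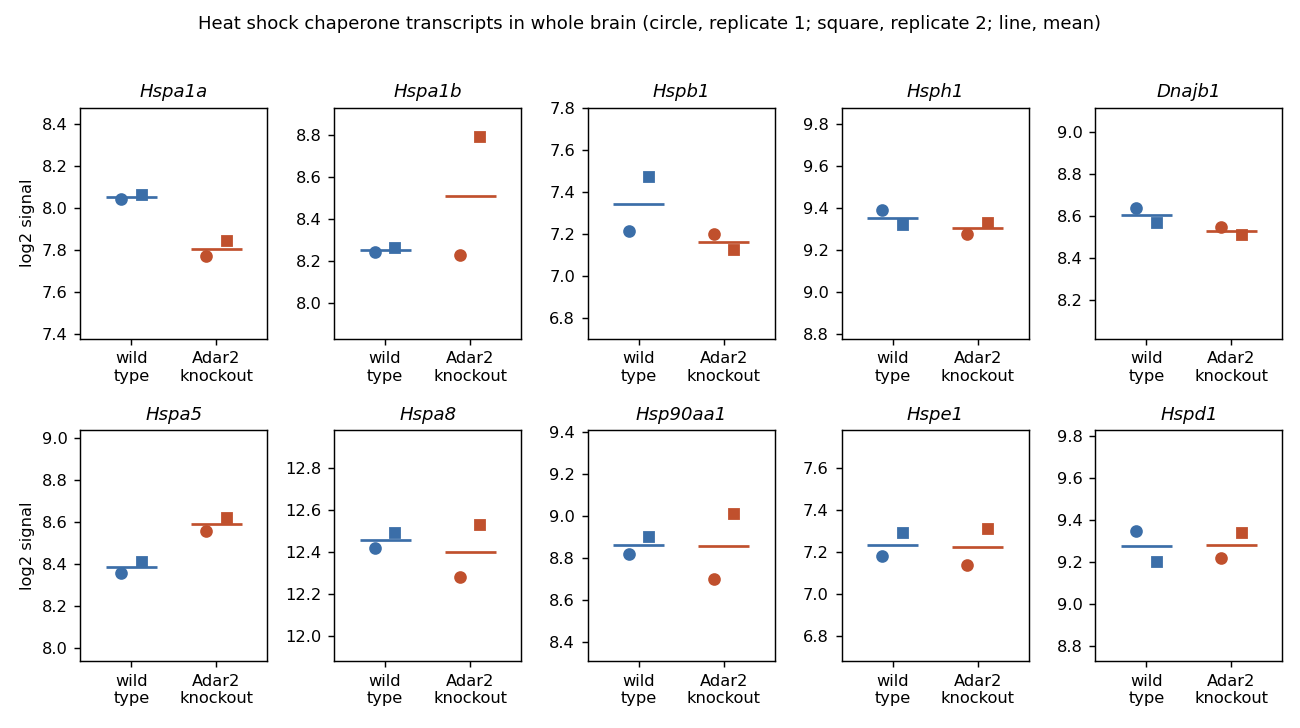
Log2 signal of the 10 chaperone genes in each of the 4 arrays, with wild type in blue and Adar2 knockout in orange, circles for replicate 1, squares for replicate 2 and lines for the group means. Each panel spans 1.1 log2 units around its gene's mean, so the panels show equal steps but different levels. Both Hspa1a knockout values lie below both wild-type values, both Hspa5 knockout values lie above, and a single Hspa1b value, 8.79, stands away from the other 3.

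Hspa1a showed the lowest p of all members. Its cluster (17344132, chromosome 17, 34969199 to 34972156, minus strand, 15 probes) read 8.04 and 8.06 in wild type (replicate 1 first, here and below) and 7.77 and 7.84 in Adar2-/-. Both Adar2-/- arrays were below both wild-type arrays, and the gap was wider than the spread within either genotype. The change was -0.245 (SE 0.103, unadjusted p = 0.0564, adjusted p = 0.834, limma), with a 95% interval for the ratio of Adar2-/- to wild type of 0.707 to 1.01. Its unadjusted p lay under 0.05 in 4 of the alternative analyses, among them limma after median centring (change -0.285, unadjusted p = 0.0362, adjusted p = 0.813), and its adjusted p in none.

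Hspa1b, which encodes a nearly identical protein, did not follow Hspa1a. Its cluster (17344126, chromosome 17, 34956429 to 34959238, minus strand, 10 probes) read 8.24 and 8.26 in wild type and 8.23 and 8.79 in Adar2-/-. Only Adar2-/- replicate 2 stood away, and the other 3 arrays agreed within 0.03. The change was 0.26 (SE 0.193, unadjusted p = 0.228, adjusted p = 0.873, limma). It rested on that single array, since the change was -0.02 without Adar2-/- replicate 2 and 0.54 without replicate 1, which leave a lone Adar2-/- array that limma assumes to vary like the wild type. The second of these passed an unadjusted p of 0.05 and not an adjusted one. A gap between the Adar2-/- arrays as wide as the 0.56 of Hspa1b was seen in 3.57% of all clusters.

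The difference between the log2 signals of Hspa1b and Hspa1a was 0.20 in both wild-type arrays, 0.46 in Adar2-/- replicate 1 and 0.95 in replicate 2. It was thus larger in both Adar2-/- arrays, by 0.505 on average, with an exact two-sided permutation p of 0.333, the smallest this design allows. This comparison was chosen after the values were seen, and the 0.95 rests on the lone Hspa1b value of 8.79. The coding sequences of these genes are near-identical, so probes of either cluster may take up transcripts of both, and the split between them is uncertain. The file marked neither cluster as cross-hybridizing.

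Hspa8 encodes HSC70, the constitutive HSP70 that folds new proteins and uncoats clathrin vesicles at synapses. Its own cluster (17516365, chromosome 9, 40800984 to 40805200, plus strand, 30 probes) spans the snoRNA genes Snord14c, Snord14d and Snord14e as well. It read 12.42 and 12.49 in wild type and 12.28 and 12.53 in Adar2-/-. The Adar2-/- values lay on either side of both wild-type values, and the change of -0.05 (SE 0.126, unadjusted p = 0.707) was smaller than the gap between the Adar2-/- arrays.

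Hspa5 encodes BiP, the HSP70 of the ER and a main target of the unfolded protein response. Its cluster (17370103, chromosome 2, 34771970 to 34776531, plus strand, 30 probes) also overlaps the RefSeq span of the protein-coding gene Rabepk. It read 8.36 and 8.41 in wild type and 8.56 and 8.62 in Adar2-/-. It was the only member whose Adar2-/- arrays were both above the wild-type arrays, and the replicates of each genotype were within 0.06 of each other. The change was 0.205 (SE 0.103, unadjusted p = 0.0963, adjusted p = 0.841, limma), with a 95% interval for the ratio of 0.966 to 1.38. Salivary gland and pituitary are secretory tissues, and 1 of 5 salivary and 3 of 8 pituitary clusters were higher in Adar2-/- at an unadjusted p below 0.05. The salivary mean was 7.74 in Adar2-/- replicate 1 and 5.04 in replicate 2, and the change of Hspa5 was 0.235 without Adar2-/- replicate 1. Prl, a pituitary hormone, read 6.55 and 4.99 in wild type and 10.11 and 9.66 in Adar2-/-, and the part of either tissue in the Hspa5 value was not tested.

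The partners of HSP70 showed small differences. Dnajb1 encodes an HSP40 that delivers substrates to HSP70 and starts its ATP cycle. Its cluster (17502954, chromosome 8, 83608175 to 83611903, plus strand, 24 probes) read 8.64 and 8.57 in wild type and 8.55 and 8.51 in Adar2-/-. The genotypes did not overlap but were only 0.02 apart at their nearest values, and the change was -0.075 (SE 0.104, unadjusted p = 0.497). Hsph1 encodes HSP110, which exchanges the nucleotide on HSP70 and helps it take aggregates apart. Its cluster (17455507, chromosome 5, 149614287 to 149636376, minus strand, 17 probes) read 9.39 and 9.32 in wild type and 9.28 and 9.33 in Adar2-/-, which overlapped, with a change of -0.05 (SE 0.104, unadjusted p = 0.648).

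Hsp90aa1 encodes the stress-inducible cytosolic HSP90, which matures kinases and steroid receptors. Its cluster (17284002, chromosome 12, 110690605 to 110702728, minus strand, 23 probes) read 8.82 and 8.90 in wild type and 8.70 and 9.01 in Adar2-/-. As for Hspa8, Adar2-/- replicate 1 was the lowest array and replicate 2 the highest. The means differed by -0.005 (SE 0.138, unadjusted p = 0.972), with a 95% interval of -0.345 to 0.335.

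Hspb1 encodes the small heat shock protein HSP25, an ATP-independent holdase found in glia, vessels and some motor neurons. Its cluster (17443342, chromosome 5, 135887919 to 135889896, plus strand, 22 probes) read 7.21 and 7.47 in wild type and 7.20 and 7.12 in Adar2-/-. The genotypes were apart by 0.01, whereas the wild-type arrays differed from each other by 0.26. The change was -0.18 (SE 0.129, unadjusted p = 0.213, adjusted p = 0.872, limma). It was -0.05 without wild-type replicate 2 and -0.31 without wild-type replicate 1. Of the glial and vessel markers, 1 of 5 astrocyte genes (Gja1, change -0.27) and 1 of 5 oligodendrocyte genes (Mog, change -0.35) were lower in Adar2-/-. Of 5 endothelial genes 1 was higher (Slco1a4, change 0.40), and 0 of 5 microglial genes passed, all at an unadjusted limma p below 0.05. Over all clusters 3.64% were higher and 2.31% lower. The median changes were -0.125 for the astrocyte, -0.02 for the oligodendrocyte, 0.005 for the endothelial and -0.085 for the microglial list. The part of these cell types in the Hspb1 value was not tested.

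Both chaperonin genes had means within 0.01 of each other in the 2 genotypes. Hspd1 (17223228, chromosome 1, 55077834 to 55088243, minus strand, 23 probes) read 9.35 and 9.20 in wild type and 9.22 and 9.34 in Adar2-/-, with a change of 0.005 (SE 0.116, unadjusted p = 0.967). Hspe1 (17212882, chromosome 1, 55088132 to 55091317, plus strand, 12 probes) read 7.18 and 7.29 in wild type and 7.14 and 7.31 in Adar2-/-, with a change of -0.01 (SE 0.117, unadjusted p = 0.935). The 95% intervals were -0.280 to 0.290 for Hspd1 and -0.299 to 0.279 for Hspe1. Although the genes share the promoter region shown above, their arrays were not ordered alike, since wild-type replicate 1 was the highest of the 4 for Hspd1 and below replicate 2 for Hspe1.

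**Figure D2:**
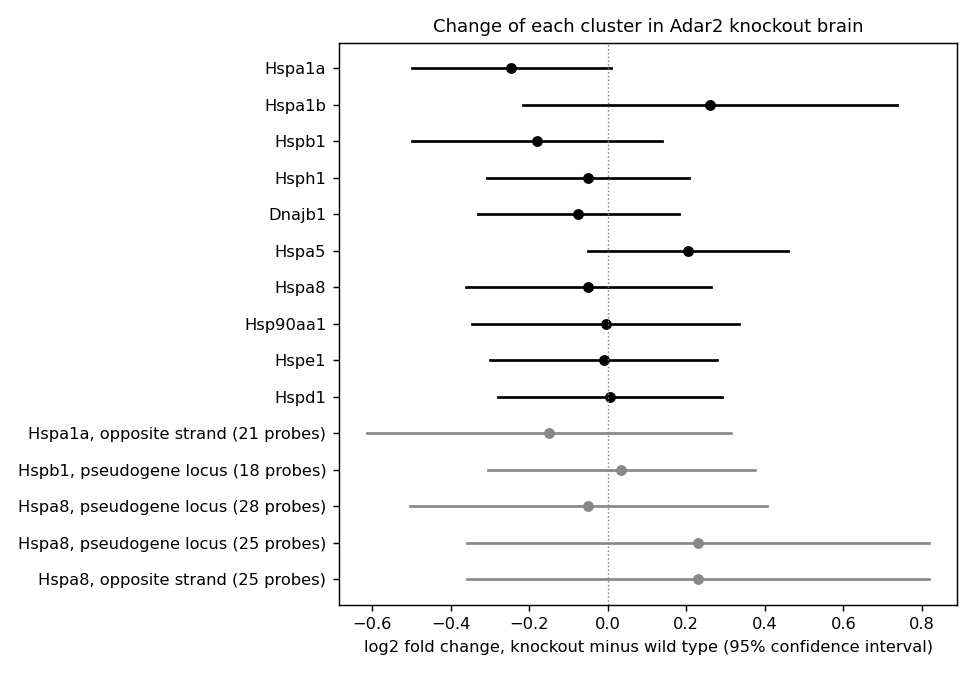
Change of each of the 15 clusters in log2 units (Adar2 knockout minus wild type), with points for the estimates and lines for the 95% confidence intervals of the limma fit. The 10 clusters on the strand of their own gene are black and the other 5 are grey, and every interval includes 0.

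Of the 15 clusters, 5 carried a member's symbol without lying on its coding strand. All 5 list the symbol more than once in the file, and their values are given apart from the genes'. The cluster opposite Hspa1a (17336820, plus strand, 21 probes) read 4.70 and 4.42 in wild type and 4.18 and 4.64 in Adar2-/-, close to the 3.49 to 4.40 of Y-linked genes. A cluster named Hspb1 on chromosome 13 (17286958, 45078692 to 45081222, 18 probes) overlapped the pseudogene Hsp25-ps1. It read 5.71 and 5.92 in wild type and 5.97 and 5.73 in Adar2-/-, a change of 0.035.

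For Hspa8 there were 3 such clusters. A pair covered the same span on chromosome 5 (5781530 to 5783636, plus strand), which overlaps the pseudogene Gm15459. The cluster of 28 probes (17434475) read 8.69 and 8.30 in wild type and 8.62 and 8.27 in Adar2-/-, a change of -0.05, and replicate 1 was higher in both genotypes. The cluster of 25 probes (17548379) read 9.31 and 9.83 in wild type and 9.54 and 10.06 in Adar2-/-, so there replicate 2 was higher in both. A cluster opposite the end of Hspa8 on chromosome 9 (17548744, 40804933 to 40805199, minus strand, 25 probes) read 9.30, 9.83, 9.54 and 10.05 in the same order, within 0.01 of 17548379 in every array. These clusters had the widest range of all members, 0.75, and a change of 0.23 (SE 0.238, unadjusted p = 0.373) that was less than the 0.52 between replicates of 17548379.

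Among the 5 clusters outside the member genes whose 4 values were most like 17548379, by root mean square distance after removing each cluster's mean, were Mir5124 (0.0327), Cryga (0.0328), Cd300lg (0.0334) and Olfr1301 (0.0421), out of 24175 clusters compared over 4 arrays. Mir5124 read 3.50 and 3.96 in wild type and 3.64 and 4.19 in Adar2-/-. Its replicate 2 was also the higher in both genotypes, which follows from picking it for its likeness. All 4 values lay within the 3.49 to 4.40 of Y-linked genes, where signals have no clear level.

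**Figure D3:**
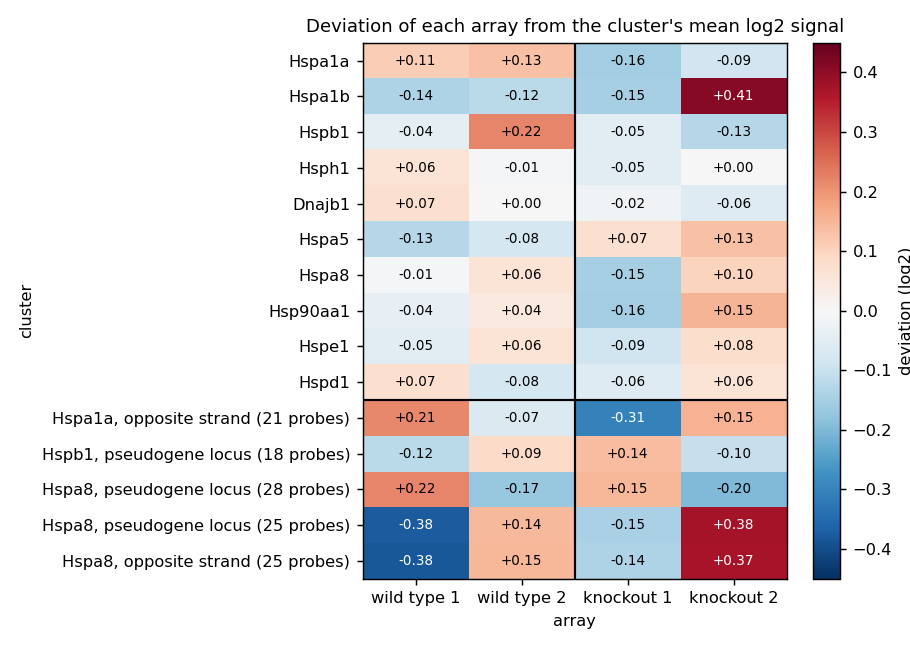
Deviation of each array from the mean of its cluster, in log2 units, for the 15 clusters (rows) and 4 arrays (columns), with blue below and red above the mean. The upper 10 rows are the genes' own clusters. Below the line, the Hspa8 clusters of 25 probes were lowest in wild-type replicate 1 and highest in Adar2 knockout replicate 2, and the one of 28 probes was high in replicate 1 and low in replicate 2 of both genotypes.

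Among the 10 own-strand clusters, Adar2-/- replicate 2 was above replicate 1 in 8, where this was so in 46.6% of all clusters, and wild-type replicate 2 was above replicate 1 in 7, where this was so in 49.3%. The clusters with the reverse order in Adar2-/- were Hspb1 and Dnajb1. The median of Adar2-/- replicate 2 minus replicate 1, with its sign, was 0.095 over these 10 and -0.01 over 16059 clusters on their gene's strand. Without the sign, the median gap between the Adar2-/- arrays was 0.13 over all clusters. These orders rest on a single pair of arrays per genotype and were not tested. Of the changes in the 10 own-strand clusters, those of Hspa1b, Hspa8, Hsp90aa1, Hspe1 and Hspd1 were smaller than the gap between their Adar2-/- arrays.

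Few other genes of the chaperone network passed the test either. In 10 lists of further chaperones, their regulators and stress genes, with 87 genes and 104 clusters, 1 cluster was higher and 1 was lower at an unadjusted p below 0.05 (0.962% each, beside 3.64% and 2.31% of all clusters), and 0 passed the adjusted threshold. After median centring 1 was higher and 5 were lower, where 2.37% and 3.64% of all clusters were. Their median change was -0.025. The higher cluster was named Cryaa, a small heat shock protein of the lens, at 4.79 and 4.86 in wild type and 5.16 and 5.14 in Adar2-/- (change 0.325, limma unadjusted p = 0.0207, adjusted p = 0.834), but it lies on the minus strand, opposite the Cryaa gene, and the file marked it as cross-hybridizing. The cluster on the gene's own strand read 5.74 and 5.93 in wild type and 5.92 and 5.94 in Adar2-/- and did not pass (limma unadjusted p = 0.443, adjusted p = 0.931). The lower cluster was Xbp1, the transcription factor spliced in the unfolded protein response, at 10.57 and 10.65 in wild type and 10.40 and 10.25 in Adar2-/- (change -0.285, limma unadjusted p = 0.0458, adjusted p = 0.834). After quantile normalization Xbp1 no longer passed (change -0.24, limma unadjusted p = 0.076), nor after cyclic loess (change -0.23, limma unadjusted p = 0.0796).

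The heat shock factor list, with Hsf1, Hsf2, Hsf4 and the HSF1-binding protein Hsbp1, had 0 of 4 clusters past an unadjusted p of 0.05 and a median of 0.06. In the ER list 11 of 20 clusters were below 0 and the median was -0.06. In the list of other cytosolic HSP40 genes 12 of 14 clusters were below 0, with a median of -0.065, and of the TRiC chaperonin subunits, which fold actin and tubulin, 8 of 10 were above 0, with a median of 0.075. Over all clusters 50.8% were above 0, and these counts of signs were not tested. In these 4 lists Xbp1 alone had an unadjusted p below 0.05. The list of other mitochondrial chaperones and proteases had 0 of 10 past it and a median of -0.03.

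Another set of stress-responsive transcripts, the immediate early genes, gave other values in the same arrays. Of 12 such genes 7 were lower in Adar2-/- at an unadjusted p below 0.05 (Cyr61, Npas4, Fos, Btg2, Dusp1, Egr2 and Egr1), beside 2.31% of all clusters, with a median change of -0.345 over the 12. The adjusted p of these 7 ran from 0.829 to 0.834 (limma), and under the 3 other scalings 6 to 8 of the 12 were lower. The 8 glucocorticoid-responsive genes had 0 past that threshold and a median of 0.11. Whether the heat shock genes differ from either list was not tested. The immediate early list was chosen with earlier results of these data known and holds Npas4, which the paper lists as lower in Adar2-/-. Its count is therefore a description and not independent support.

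**Figure D4:**
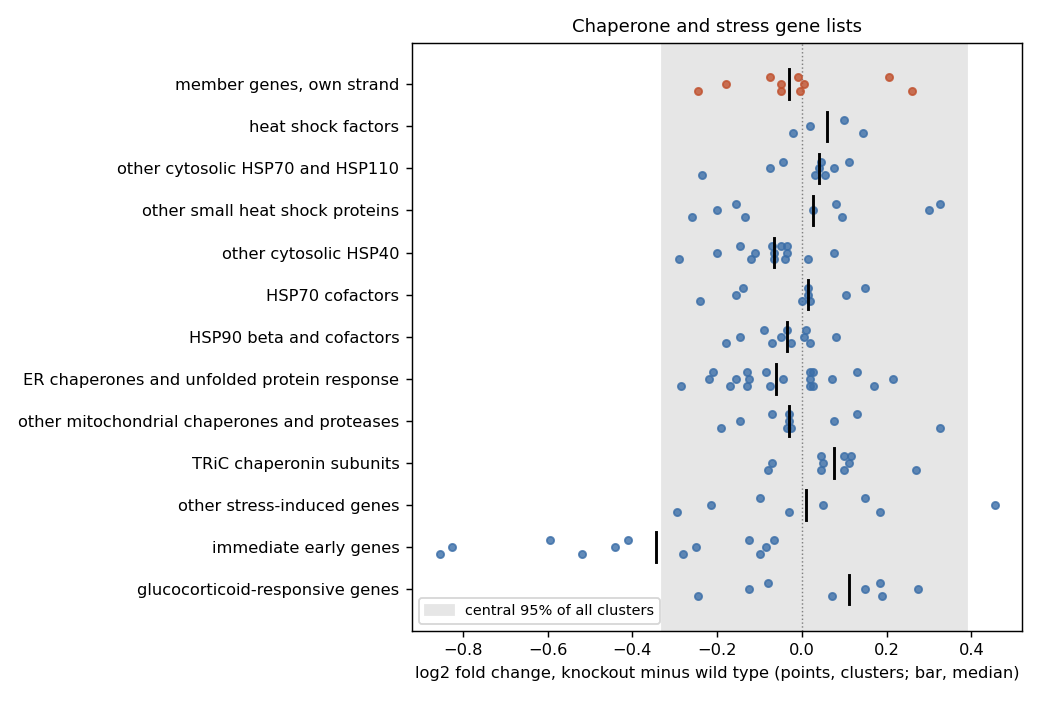
Log2 change (Adar2 knockout minus wild type) of every cluster of the 10 member genes on their own strand (orange) and of the other gene lists (blue), with a black bar at each median and a grey band from -0.33 to 0.39 that holds the central 95% of all clusters. The members and all but 1 of the 104 clusters of the 10 chaperone and stress lists lie inside the band, whereas 6 immediate early genes lie below it.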

How the data were processed

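Total RNA of 2 wild-type and 2 Adar2-/- whole brains was hybridised by a core facility to Affymetrix gene arrays. The authors deposited log2 signals of 33793 transcript clusters to 2 decimals, and the submitters' processing notes name Affymetrix Expression Console and RMA. The build of the coordinate columns and the software versions were not given in the sources used here. Some transcript descriptions in the file cite NCBIM37 positions, which were not used. The deposited table also holds the authors' fold changes and p-values, which were not used. The labels give genotype and replicate number, and the study's methods describe RNA of 2 wild-type and 2 Adar2-/-, read here as a separate brain for each array. The labels themselves do not state this, and p-values measure the spread between these arrays.

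Genotypes were compared with limma 3.58.1 in R 4.3.3 (lmFit, eBayes, genotype only, two-sided), with Benjamini-Hochberg adjustment over all clusters and no filter. The prior SD was 0.125 with 3.79 degrees of freedom. The fit was tested on simulated data. Intervals are at 95%. The number of arrays limits the precision, and the table holds no detection calls. Same-numbered arrays were not paired, as their deviations correlated with r = 0.0516 across all clusters, which does not settle the matter for a single cluster.

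Clusters were placed by their coordinates against RefSeq spans of GRCm38.p6, which all 10 own-strand clusters overlapped. Members, gene lists, markers and naming rule (all member clusters, list genes with p below 0.05, Adarb1 and the 5 clusters most like the widest-ranging member) were chosen with earlier results of these data known. Of those 5 clusters 1 is not reported here. A member's symbol had to match the file's symbol exactly. Alternatives were 3 normalizations, a filter on dim clusters, leaving out clusters marked as cross-hybridizing, other variance estimates, a replicate block, leaving out each array, and, chosen after seeing the data, the 10 own-strand clusters alone. Of the listed genes Stub1, and of the markers Map2 and Smgc, were not found by symbol. Tables and plots were made in Python 3.11.15 (pandas 2.3.3, matplotlib 3.10.9).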

Additional observations from a re-analysis of the deposited data

How the results depend on the processing

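The count of members past an unadjusted p of 0.05 was 0 and became 1 under median centring, the filter on dim clusters, eBayes with an intensity trend (each Hspa1a) and the unequal-variance test (Hspa5), and 2 under the pooled-variance test (Hspa1a and Hspa5). Leaving out each array gave 0 to 1 (Hspa1b without Adar2-/- replicate 1). Under median centring 2.37% of all clusters were higher and 3.64% lower at that unadjusted p. No such share is given here for the other alternatives named, so their counts cannot be set beside a background. No member passed an adjusted p of 0.05 in any alternative. Over all clusters that count was 0 except 15 in the pooled-variance test. With the replicate block 0 members passed, the median stayed at -0.01, and the lowest p was 0.0652 (Hspa1a). The block changed no call. It moved the limma unadjusted p of the Hspa8 clusters 17548379 and 17548744 from 0.373 to 0.07338 and 0.07375. Signs of some members reversed. Hspb1 on chromosome 13 gave -0.005 under median centring, -0.00938 under quantile and -0.00419 under cyclic loess normalization. Hsp90aa1 gave 0.0288 and 0.0390 under the last 2, Hspe1 gave 0.00322 under cyclic loess, and Hspd1 gave -0.035 under median centring. Leaving out each array gave -0.02 to 0.54 for Hspa1b, -0.175 to 0.075 for Hspa8, -0.16 to 0.15 for Hsp90aa1, -0.095 to 0.075 for Hspe1 and -0.07 to 0.08 for Hspd1. It gave -0.38 to 0.08 for the cluster opposite Hspa1a, -0.085 to 0.155 for Hspb1 on chromosome 13, -0.31 to -0.05 for Hspb1 itself, -0.085 to -0.015 for Hsph1, -0.11 to -0.04 for Dnajb1, -0.245 to 0.145 for the Hspa8 cluster of 28 probes, -0.03 to 0.49 for 17548379 and -0.035 to 0.495 for 17548744. In all, 17 of 60 such values changed sign. The cause was not tested. Among the other chaperone lists, median centring, which moved the median of all clusters to -0.035, gave 1 higher and 5 lower of 104 clusters, beside 2.37% higher and 3.64% lower of all clusters.

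With 2 arrays a genotype, changes inside the intervals given above cannot be seen, and a p that misses the threshold does not show that genotypes are alike. Signals near those of Y-linked genes have no clear level.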

Other observations

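Clusters that lie opposite the gene whose symbol they carry were looked at over the whole array, because of the Hspa8 cluster on the minus strand of chromosome 9. This was done after its values were seen. Over 726 such clusters the median gap of wild-type replicate 2 minus replicate 1 was 0.08, and that of Adar2-/- replicate 2 minus replicate 1 was -0.01. Over 16059 clusters on the strand of their own gene both medians were -0.01. Replicate 2 was above replicate 1 in both genotypes in 31.1% of the clusters on the opposite strand and in 22.0% of those on the gene's own strand. The median signals of the former were 5.685 in wild-type replicate 1, 5.77 in wild-type replicate 2, 5.83 in Adar2-/- replicate 1 and 5.815 in Adar2-/- replicate 2. Neither difference was tested.

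The clusters whose values over the 4 arrays were most like those of Hspa1b, also chosen after its values were seen, were Olfr706, Gltpd2, Olfr836, Ccdc153 and Gm5476. Their root mean square distances from it were 0.013 to 0.0249. Ccdc153 read 7.40 and 7.43 in wild type and 7.34 and 7.92 in Adar2-/-, so Adar2-/- replicate 2 alone stood away there too. This likeness follows from how the clusters were picked. Of 24175 clusters compared, 23 lay within 0.05 of Hspa1b, and 11 lay within 0.05 of the Hspa8 cluster 17548379.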
